A study of Mus musculus with 18 samples.

Results

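Untreated bone marrow-derived macrophages (BMDMs) of C57BL/6.NOD-Aec1Aec2 mice (SjSS) were compared with those of C57BL/6 mice (B6), by RNA-seq gene counts. The 3 B6 and 3 SjSS control samples were 6 of the 18 samples sequenced, which form 6 groups of 3: both strains left untreated, given apoptotic cells (AC), or given the oligonucleotide CpG. All 20615 genes of the table were members of the comparison, and they were separated by chromosome into 1493 on chromosome 1, 1135 on chromosome 3 and 17987 elsewhere. The mice were females aged 7 to 12 weeks, with 3 mice in each strain. The SjSS mouse carries the NOD intervals Aec1 (Idd3, on chromosome 3) and Aec2 (Idd5, on chromosome 1) on the B6 background, so every SjSS sample carried both intervals and B6 samples carried neither. Marrow cells of both strains were grown for 7 days with 20% L929 supernatant, a source of M-CSF, plated at 300000 cells per well and kept in 5% L929 supernatant. In the treated groups, used here for the shared estimate of the spread and for the question of whether a strain difference was also seen after treatment, ACs were dexamethasone-killed thymocytes at 5 per BMDM for 2 h, with 3 h after the wash by the labels, and CpG was given at 1 µM for 6 h.

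In a congenic mouse, a chromosome segment of a donor strain replaces that of the host. Genes inside the segment come in the donor's alleles, whereas genes elsewhere are expected to be those of the host, apart from donor sequence left over from breeding. Genes outside the segment can still differ in RNA level when a product of the segment acts on them. The intervals of chromosomes 1 and 3 were defined by their effect on autoimmune diabetes in the NOD mouse, and the SjSS mouse is a model of Sjögren's disease without diabetes. BMDMs are resting macrophages in the absence of a stimulus, although they have a low tonic level of interferon-stimulated RNAs.

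The control libraries held 45180407 to 57139640 counts in B6 and 30688288 to 49362514 in SjSS, and SjSS replicate 2 was the shallowest. All 15 macrophage markers were above 0, among them Adgre1, Csf1r and Cd68, and none of them was called different. Samples of the same strain correlated at r = 0.989 to 0.992 over genes (log2 CPM) and samples of different strains at 0.977 to 0.985. Mitochondrial genes took 1.31% to 1.57% of the counts in B6 and 0.814% to 1.03% in SjSS, without overlap, and their part in the results was not tested. In a bulk sample, fewer cells of a type and less RNA per cell cannot be told apart. Reads of both strains were aligned to mm10, which is the B6 genome, and the effect of NOD sequence variants on the counts was not tested.

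Of 15789 genes that passed the filter on low counts, 318 (2.01%) differed between untreated SjSS and B6 BMDMs, 205 (1.3%) higher and 113 (0.716%) lower in SjSS. Calls required an adjusted p under 0.05 (edgeR's quasi-likelihood test, Benjamini-Hochberg) together with a log2 fold change beyond 1.3 or -1.3. By the adjusted p alone, 1428 genes (9.04%) were higher and 1668 (10.6%) lower, so the larger changes were mostly increases and the smaller ones were not. Between log2 fold changes of 1.2 and 1.3 lay 45 genes that missed the call by size only, and 31 called genes lay between 1.3 and 1.4. The median log2 fold change of all tested genes was -0.01. The values of the 3 SjSS samples did not overlap those of the 3 B6 samples in 312 of the 318 called genes and in 5438 of all tested genes.

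The called genes were spread unevenly over the chromosomes. On chromosome 1, 86 of 1046 tested genes were called (8.22%), 57 higher and 29 lower in SjSS. On chromosome 3, 38 of 831 were called (4.57%), 23 higher and 15 lower. All other chromosomes together had 194 of 13912 (1.39%), 125 higher and 69 lower. The share ranged from 0.702% to 2.03% over the 18 other chromosomes with 20 or more tested genes, each below the share of chromosome 3. Y had 1 called gene of 3 tested, but the mice were female, so the reads counted there are of uncertain origin. The mitochondrial genome had none called of 15, although 12 were lower in SjSS by the adjusted p alone (edgeR, median log2 fold change -0.59). Chromosomes 1 and 3 thus had 39.0% of the called genes and 11.9% of the tested genes, and the larger part of the called genes was elsewhere.

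**Figure D1:**
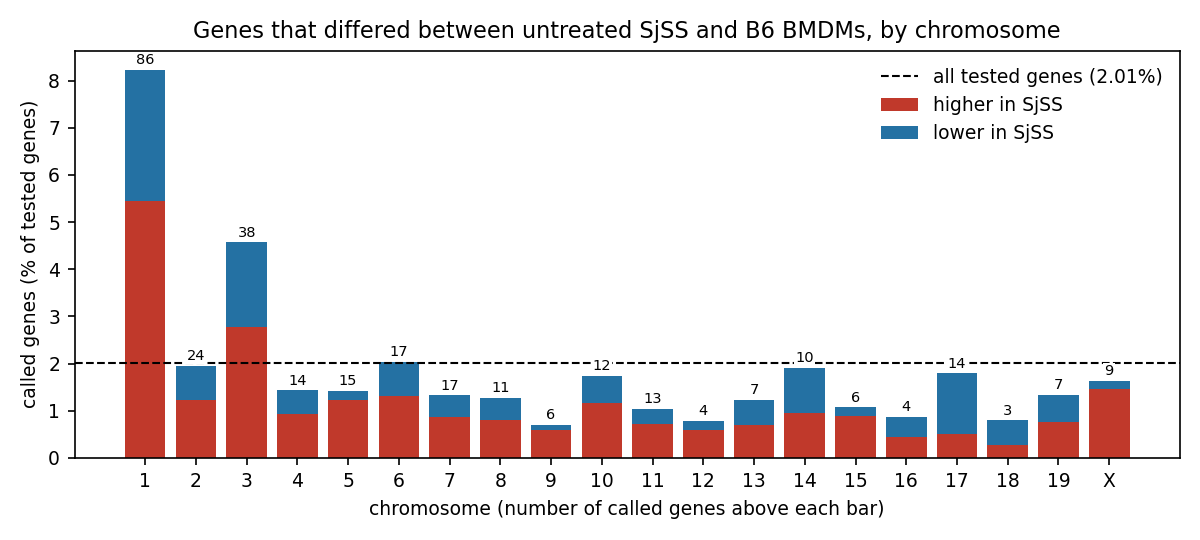
The share of tested genes called different between untreated SjSS and B6 BMDMs, in percent, on each autosome and X, split into higher (red) and lower (blue) in SjSS. The dashed line is the 2.01% of all tested genes, which chromosome 1 (8.22%) and chromosome 3 (4.57%) exceed, and chromosome 6 reaches 2.03%.

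Of the called genes, 66.3% on chromosome 1, 60.5% on chromosome 3 and 64.4% elsewhere were higher in SjSS. The median log2 fold change in size was 2.38 on chromosome 1, 2.20 on chromosome 3 and 1.77 elsewhere, and a size over 5 was found for 15, 9 and 12 called genes. Called genes were of low level. Their median over both strains was 0.634 CPM (read counts scaled to the library total) against 13.05 CPM for all tested genes, and 159 of the 318 (50%) had a mean under 1 CPM in both strains against 21.0% of all tested genes. With such genes left out, 6.67% of chromosome 1, 3.14% of chromosome 3 and 0.801% of other genes were called. Protein-coding genes were 231 of the 318 called genes (72.6%) and 82.2% of the tested genes.

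**Figure D2:**
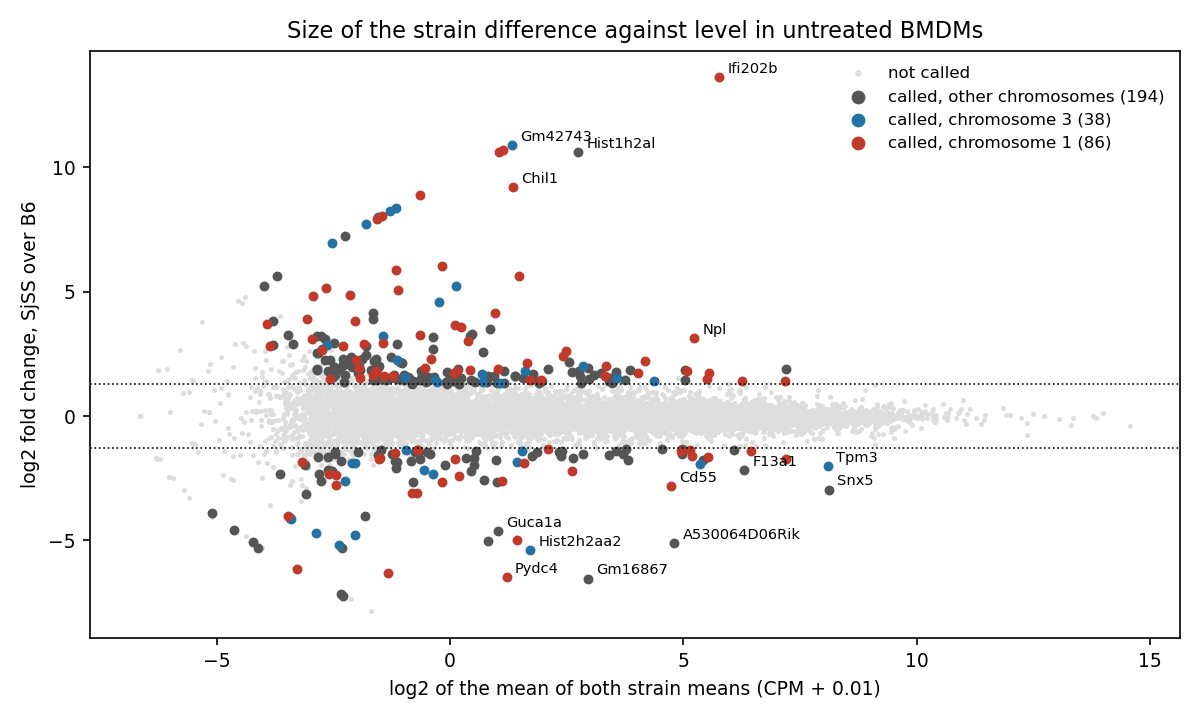
Log2 fold change of SjSS over B6 against the log2 mean level (CPM + 0.01) for each tested gene in untreated BMDMs, with called genes coloured by chromosome and dotted lines at the 1.3 threshold. For genes with no counts in a strain the plotted fold change depends on the prior count of the fit. Ifi202b stands highest, and Tpm3 and Snx5 are the called genes of highest level.

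In windows of 10 Mb, the called genes of chromosomes 1 and 3 clustered in a few places. Between 80 and 90 Mb of chromosome 1, 26 of 80 tested genes were called (32.5%), 23 of them higher in SjSS. The 26 included 6 Ugt1a genes and 15 genes close to 85 Mb, both described below. Of the genes there that share at most 50% of their read-length stretches with another gene, 16 of 65 were called (24.6%). Between 170 and 180 Mb, 22 of 123 were called (17.9%), 9 higher and 13 lower. The windows from 120 to 130 Mb (4 of 31), 60 to 70 Mb (5 of 46) and 130 to 140 Mb (11 of 102) had 10.8% to 12.9%. On chromosome 3 the fullest window was 90 to 100 Mb, with 16 of 154 called (10.4%), 12 of them higher. Of the 205 windows of other chromosomes with 20 or more tested genes, 100 had no called gene and 9 had over 5%. The 3 fullest of these were 50 to 60 Mb of chromosome 5 (3 of 23), 60 to 70 Mb of chromosome 14 (7 of 70) and 40 to 50 Mb of chromosome 17 (9 of 98). Counting only genes that share at most 50% of their read-length stretches with another gene, these windows had 3 of 22, 2 of 59 and 9 of 92.

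The largest increase of all was that of Ifi202b (chr1:173962568-173982744, mm10), a PYHIN protein of the interferon-inducible p200 family that binds DNA and lacks the pyrin domain of its relatives. It had 0, 0.0209 and 0 CPM in the 3 B6 samples and 117, 119.8 and 89.4 CPM in the 3 SjSS samples. These were 1 count in B6 and 15317 in SjSS, a ratio of 17822 (exact 95% interval of the counts, 3198 to 703989). Chil1 (chr1:134182176-134190181), which encodes a chitinase-like protein, was likewise almost absent from B6, with 1 count against 745 in SjSS, a ratio of 867 (155 to 34284). Its SjSS samples had 5.51, 3.93 and 5.67 CPM. Neither gene shares read-length stretches of its transcripts with another annotated gene.

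Npl (chr1:153503015-153550045), the lyase that splits sialic acid, was measured in both strains. It had 7.51, 7.91 and 7.58 CPM in B6 and 69.0, 65.8 and 66.8 CPM in SjSS, so the groups were far apart and each was narrow. Its log2 fold change was 3.13 ± 0.07 (SE, adjusted p = 9.5e-16, edgeR), an 8.77-fold difference. Steap3, a ferrireductase of iron uptake that was picked after its values were seen, had 21.7 ± 2.02 CPM (SD, n = 3) in B6 and 71.3 ± 5.73 in SjSS (adjusted p = 1.5e-08, edgeR). Fn1, the matrix protein fibronectin, lay at 98.4, 40.1 and 98.2 CPM in B6 and 173, 224 and 236 in SjSS. Its log2 fold change of 1.42 ± 0.27 (adjusted p = 0.0011, edgeR) was 1.10 without B6 replicate 2, below the threshold.

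The window from 80 to 90 Mb of chromosome 1 held a pair of gene clusters whose members resemble each other. The Ugt1a genes encode the UDP-glucuronosyltransferases that conjugate bilirubin, steroids and drugs. They are alternative first exons joined to shared last exons, and 50.4% to 77.3% of the read-length stretches of each tested member occur in transcripts of another gene, so that the split of reads among members is uncertain. Ugt1a8 and Ugt1a9 had no count in B6 and 597 and 622 counts in SjSS, so that, with the B6 group set to a floor of 3 counts, they were at least 232-fold and at least 241-fold higher in SjSS. Ugt1a1 had 0.448, 0.292 and 0.0888 CPM in B6 and 1.29, 3.43 and 2.18 in SjSS, a log2 fold change of 3.01 ± 0.62 (adjusted p = 0.0021, edgeR). Of the 8 members tested 6 were called, all higher in SjSS. Ugt1a7c, the member with the most reads, was not called at 208 ± 20.9 CPM in B6 and 354 ± 21.3 in SjSS. Summed over 9 members, which does not depend on the split, the CPM was 267, 252 and 235 in B6 and 461, 459 and 427 in SjSS, 1.79-fold higher.

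In a stretch close to 85 Mb, picked after its values were seen, 15 of 23 tested genes were called, all higher in SjSS, and 13 of the 15 are predicted genes with Gm numbers. Summed over all 25 genes of the stretch in the table, called or not, the CPM was 149, 152 and 151.6 in B6 and 202.1, 202.2 and 202.6 in SjSS, 1.34-fold higher. The 8 tested genes that were not called included Sp100, Sp110 and Sp140, of the Speckled Protein family of nuclear body proteins. Gm7592, annotated as a pseudogene, had no count in B6 and 185 in SjSS, at least 71.8-fold higher. Gm2427 had 0.016, 0.0209 and 0.0355 CPM in B6 and 1.77, 1.42 and 2.03 in SjSS. They share 55.6% and 59.0% of their stretches with other genes, and both overlap Gm16092 on the opposite strand, so their separate values are uncertain.

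Lower in SjSS on chromosome 1 was Cd55 (chr1:130439027-130462744), decay-accelerating factor, which protects cells from complement by breaking up C3 convertases. It had 43.4, 51.1 and 45.8 CPM in B6 and 6.65, 4.91 and 8.01 in SjSS, without overlap. Its log2 fold change was -2.82 ± 0.21 (adjusted p = 4e-08, edgeR), a 7.04-fold lower level. It was the only called member of 21 complement genes tested, whose median log2 fold change was -0.02, beside 2.01% called of all tested genes. By the adjusted p alone (edgeR) 3 of the 21 were higher and 3 lower, beside 9.04% and 10.6% of all tested genes. The nearby predicted gene Gm15674, annotated as antisense and overlapping Gm15675 on the other strand, was also lower, with 1.54 ± 0.192 CPM in B6 and 0.227 ± 0.196 in SjSS.

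A run of called genes at 172.5 to 172.6 Mb was lower in SjSS. Dusp23, a dual-specificity phosphatase, had 10.3, 10.2 and 9.77 CPM in B6 and 2.41, 1.72 and 2.30 in SjSS (log2 fold change -2.21 ± 0.11, adjusted p = 1.3e-10, edgeR). Igsf9, an adhesion protein of the immunoglobulin superfamily, was at 1.91 ± 0.517 CPM in B6 and 0.358 ± 0.0374 in SjSS. Cfap45, a protein of cilia and flagella, and Vsig8, an immunoglobulin-domain membrane protein, were near 1 CPM in B6 and had 17 counts each over the SjSS group. Both overlap 4933439K11Rik on the other strand, which was not called. Slamf8, a receptor of the SLAM family on macrophages, had 4.45, 5.69 and 8.29 CPM in B6 and 1.90, 2.60 and 2.83 in SjSS. Its log2 fold change of -1.34 ± 0.20 was -1.05 without B6 replicate 3 and -1.17 without SjSS replicate 1, inside the threshold. The other 8 SLAM genes tested were not called, beside 2.01% called of all tested genes, and the median over the 9 was -0.35. By the adjusted p alone (edgeR) 6 of the 9, Slamf8 among them, were lower and none higher. Of all tested genes 10.6% were lower and 9.04% higher.

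Proximal on chromosome 1, Acadl (chr1:66830839-66863277), the long-chain acyl-CoA dehydrogenase of fatty acid oxidation, had 71.1, 74.3 and 64.4 CPM in B6 and 23.1, 21.2 and 23.6 in SjSS. The log2 fold change was -1.63 ± 0.07 (adjusted p = 5.2e-12, edgeR). It was the only called gene of 18 tested immune and candidate genes around Idd5, beside 2.01% called of all tested genes. The median log2 fold change of the 18 was -0.07. By the adjusted p alone (edgeR) 4 of the 18 were lower and 1 higher, beside 10.6% and 9.04% of all tested genes. Slc11a1, the macrophage metal transporter of that region, did not differ beyond its spread, with 488, 512 and 524 CPM in B6 and 495, 516 and 523 in SjSS (log2 fold change 0.01 ± 0.05, adjusted p = 0.93, edgeR). Pid1, a phosphotyrosine-binding domain protein picked after its values were seen, fell from 227 ± 13.8 CPM in B6 to 67.8 ± 2.65 in SjSS.

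The PYHIN genes of distal chromosome 1, whose products sense DNA or regulate transcription and cell growth, moved in both directions. Of the 10 tested, 1 was called higher (Ifi202b) and 4 lower, beside 1.3% and 0.716% of all tested genes. The median log2 fold change of the 10 was -1.06. Pydc4 had 4.34, 4.32 and 5.03 CPM in B6 and 0.0553, 0.0887 and 0.0181 in SjSS (log2 fold change -6.47 ± 0.48, adjusted p = 3e-08, edgeR). Pyhin1 was at 55.0 ± 5.57 CPM in B6 and 18.1 ± 0.92 in SjSS, Mnda at 44.8 ± 2.39 and 16.9 ± 2.22, and Ifi204 at 127 ± 8.52 and 48.3 ± 8.39. Without SjSS replicate 3 the log2 fold change of Ifi204 was -1.28 in place of -1.39, just inside the threshold. Ifi203 passed the adjusted p at a log2 fold change of 1.08, and Aim2, the sensor of the DNA inflammasome, had 29.1 ± 3.14 CPM in B6 and 31 ± 3.13 in SjSS. Gm4955, a gene with a predicted name between them that is annotated as protein-coding, was at 5.19 ± 0.63 CPM in B6 and 0.185 ± 0.147 in SjSS. Of 17 family members listed, 10 were found under their symbols, and Gm4955 is not counted among the 10. The counts, median and sum of the family given here therefore leave out members under other names. Summed over the 10, the CPM was 346 ± 20.3 in B6 and 341 ± 32.1 in SjSS. For Pydc4, Gm4955, Pyhin1 and Mnda the sharing of stretches with similar genes could not be computed under these symbols, and Mnda overlaps Mndal on the same strand.

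**Figure D3:**
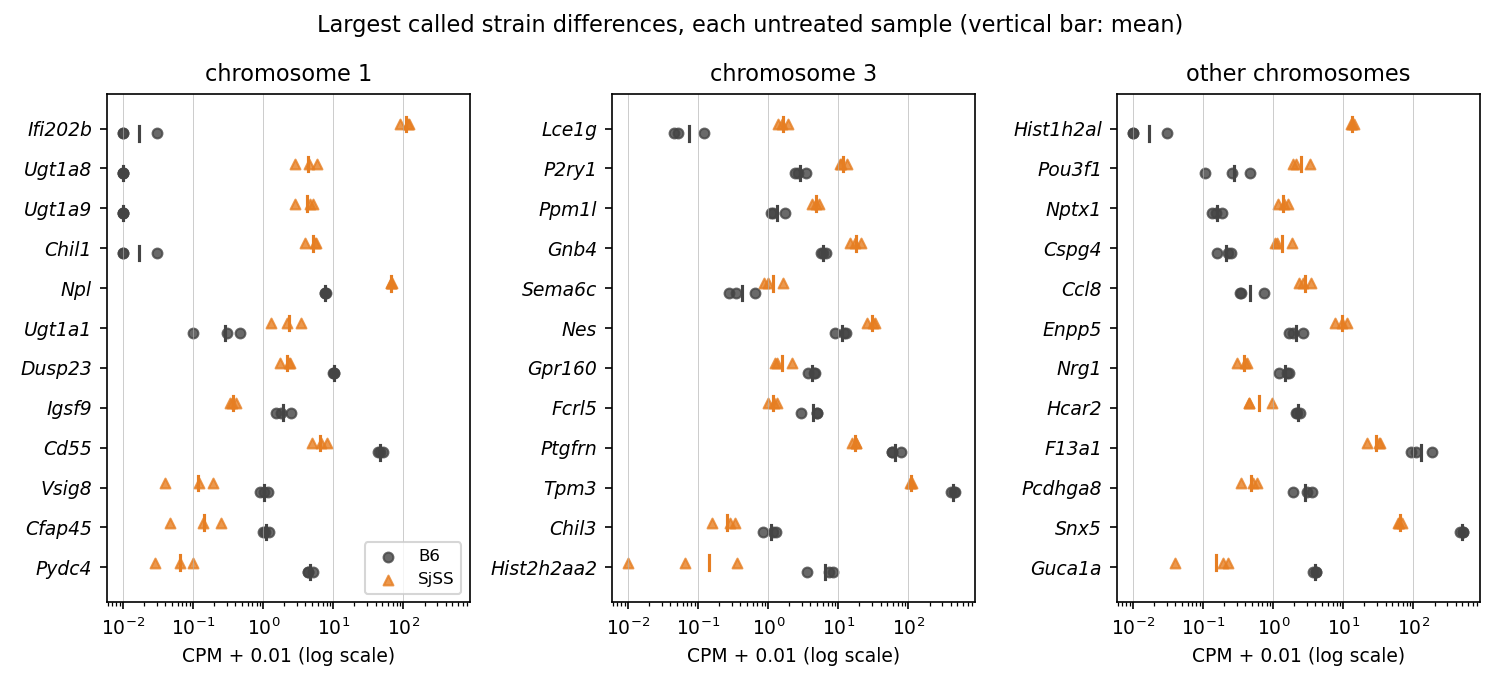
CPM + 0.01 (log axis) of each untreated sample for the 6 largest called increases and the 6 largest called decreases on chromosome 1, chromosome 3 and the other chromosomes, among genes that are not predicted, reach 1 CPM in the higher strain and have samples that do not overlap. Circles are B6, triangles SjSS and vertical bars the group means, and the groups do not overlap, which the choice of genes fixes.

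On chromosome 3, the called gene of highest level was Tpm3 (chr3:90072649-90100902), a tropomyosin of the actin cytoskeleton. It had 464, 446 and 408 CPM in B6 and 108, 106 and 112 in SjSS, a log2 fold change of -2.01 ± 0.06 (adjusted p = 7.2e-14, edgeR). Of its stretches, 16% occur in other genes' transcripts. Ptgfrn, a tetraspanin partner, had 78.5, 59.1 and 57.4 CPM in B6 and 15.8, 18 and 17.7 in SjSS (-1.93 ± 0.18). Gpr160, an orphan receptor, was at 4.26 ± 0.471 and 1.58 ± 0.534 CPM, and its log2 fold change of -1.42 was -1.25 without SjSS replicate 1. The predicted lincRNA Gm5547 was at 1.27 ± 0.176 CPM in B6 and 0.248 ± 0.0903 in SjSS.

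Secreted and receptor genes of immune cells were also among the decreases of chromosome 3. Chil3, the chitinase-like protein Ym1 of alternatively activated macrophages, had 1.26, 1.15 and 0.835 CPM in B6 and 0.276, 0.325 and 0.145 in SjSS (log2 fold change -2.15 ± 0.35, adjusted p = 0.00028, edgeR). Fcrl5, an Fc receptor-like protein known from B cells, was at 4.27 ± 1.2 CPM in B6 and 1.16 ± 0.175 in SjSS. It was the only called gene among 9 tested Fc receptor genes, with a median of -0.21, beside 2.01% called of all tested genes. By the adjusted p alone (edgeR) 4 of the 9 were lower and 1 higher, beside 10.6% and 9.04% of all tested genes.

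The increases of chromosome 3 included signalling proteins. P2ry1, a receptor for ADP, had 3.49, 2.63 and 2.42 CPM in B6 and 10.8, 10.5 and 13.2 in SjSS (2.01 ± 0.17 on the log2 scale, adjusted p = 1.8e-07, edgeR). Ppm1l, a phosphatase, was at 1.33 ± 0.35 and 4.73 ± 0.574 CPM. Gnb4, a G protein subunit, had 6.12, 5.55 and 6.57 CPM in B6 and 17.3, 21.2 and 14.6 in SjSS. Nes, the intermediate filament nestin, was at 11.3 ± 2.05 and 30.0 ± 4.25 CPM, with a log2 fold change of 1.41 that was 1.27 without B6 replicate 2. Lce1g, a gene of the skin's cornified envelope, had 0.0631 ± 0.0425 CPM in B6 and 1.61 ± 0.273 in SjSS. Sema6c, a semaphorin, was at 0.414 ± 0.199 and 1.16 ± 0.41 CPM, and its log2 fold change of 1.44 was 1.2 without B6 replicate 3 and 1.14 without SjSS replicate 2.

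A histone cluster at 96.2 to 96.3 Mb gave opposite values in neighbouring genes. Gm42743, a lincRNA, had no count in B6 and 732 in SjSS, at least 284-fold higher, and Gm20628, an antisense gene, had 0.0545 ± 0.0472 CPM in B6 and 2.12 ± 0.348 in SjSS. These overlap each other and Hist2h2bb. Hist2h2aa2 was lower, with 7.35, 8.43 and 3.57 CPM in B6 and 0.35, 0 and 0.0544 in SjSS. All of its stretches (100%) occur in another gene, and summed with its near-identical copy Hist2h2aa1 the level was 26.6 ± 1.93 CPM in B6 and 19.5 ± 0.151 in SjSS, 0.732 of the B6 level. The decrease of Hist2h2aa2 taken by itself is therefore uncertain.

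Of the immune and candidate genes around Idd3 and the later Idd intervals of chromosome 3, 21 were tested and 1 was called. Of all tested genes 2.01% were called. By the adjusted p alone (edgeR) 4 of the 21 were lower and none higher, beside 10.6% and 9.04% of all tested genes. Cetn4, a centrin, was at 0.733 ± 0.131 CPM in B6 and 0.288 ± 0.0305 in SjSS (log2 fold change -1.35 ± 0.43, adjusted p = 0.032, edgeR), and it lost the call when any sample but B6 replicate 2 was left out (adjusted p 0.064 to 0.11). It overlaps Bbs12 on the other strand. Il2 had 1 count over the B6 samples and 5 over the SjSS samples, did not pass the filter and was not tested, and Il21 and Ctla4 were not analysed here. Tlr2, on the same chromosome, was lower without reaching the fold threshold, with 267 ± 9.21 CPM in B6 and 133 ± 24.1 in SjSS (log2 fold change -1.01 ± 0.11, adjusted p = 2.7e-06, edgeR).

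Among the 194 called genes outside chromosomes 1 and 3, Snx5 on chromosome 2 (chr2:144250123-144270906) had the highest level. This sorting nexin of the endosomal retromer pathway had 508, 513 and 457 CPM in B6 and 69.2, 61.3 and 60.2 in SjSS. Its log2 fold change was -2.95 ± 0.07 (adjusted p = 9.5e-16, edgeR), a 7.74-fold lower level, and 2% of its stretches occur in other genes. Hist1h2al, a histone H2A gene of chromosome 13, was the largest increase, with 1 count over the B6 samples and 1938 over the SjSS samples, a ratio of 2255 (404 to 89113). Its SjSS samples had 13.2, 12.8 and 14.2 CPM.

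A group of called genes lay together at 44.1 to 48.2 Mb of chromosome 17. A530064D06Rik was at 43.9, 62.6 and 56.8 CPM in B6 and 1.75, 1.51 and 1.49 in SjSS (log2 fold change -5.09 ± 0.22, adjusted p = 1.5e-11, edgeR). Guca1a, an activator of guanylate cyclase known from photoreceptors, had 3.63, 4.07 and 4.07 CPM in B6 and 0.184, 0.0296 and 0.218 in SjSS. Enpp5, a member of the nucleotide pyrophosphatase family, was higher, at 2.08 ± 0.53 CPM in B6 and 9.53 ± 1.95 in SjSS. On chromosome 14, Gm16867 was at 15.3 ± 0.932 CPM in B6 and 0.189 ± 0.184 in SjSS, and 96% of its stretches occur in other genes, so its value is uncertain.

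Outside chromosomes 1 and 3, the called genes included some known from monocytes and macrophages. F13a1, the A chain of coagulation factor XIII and a gene of monocytes and macrophages, had 187, 109.6 and 91.7 CPM in B6 and 21.4, 32.2 and 33.2 in SjSS (log2 fold change -2.16 ± 0.28, adjusted p = 2.8e-05, edgeR). Folr2, a folate receptor of resident macrophages that was picked after its values were seen, rose from 33.8, 76.1 and 77.3 CPM to 223, 233 and 239. Cd163, the haemoglobin scavenger receptor, fell from 5.08 ± 0.266 CPM to 1.68 ± 0.231. Among the other large decreases outside chromosomes 1 and 3, Hcar2, a receptor for niacin and ketone bodies, was at 2.23 ± 0.178 and 0.608 ± 0.293 CPM, and Nrg1, a growth factor for ErbB receptors, at 1.48 ± 0.241 and 0.367 ± 0.0631.

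The other large differences of this class were at low levels. Pou3f1, a POU-domain transcription factor, had 0.0961, 0.459 and 0.249 CPM in B6 and 3.37, 2.13 and 1.90 in SjSS. Nptx1, a neuronal pentraxin, was at 0.148 ± 0.026 and 1.39 ± 0.229 CPM, and Cspg4, the proteoglycan NG2, at 0.2 ± 0.0485 and 1.33 ± 0.437. The pseudogenes Gm11222 (0.286 ± 0.0895 and 3.31 ± 0.362 CPM) and Gm14036 (0.249 ± 0.118 and 2.41 ± 0.578) were also higher, and Gm14036 shares 73% of its stretches and lies within Plcb1. Pcdhga8, of the clustered protocadherins, was lower at 2.81 ± 0.836 and 0.471 ± 0.127 CPM, and 52% of its stretches are shared with other members of its cluster.

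Interferon-stimulated genes, the antiviral genes induced downstream of the interferon receptors, were mostly higher in untreated SjSS BMDMs. Of 50 tested, 3 were called higher and none lower, and by the adjusted p alone 32 were higher and 1 lower, beside 9.04% and 10.6% of all tested genes. Their median log2 fold change was 0.63, and 46 of the 50 were above 0. Oasl1, a regulator of Irf7 translation, had 5.09, 6.01 and 4.69 CPM in B6 and 16.7, 21.6 and 16 in SjSS (log2 fold change 1.78 ± 0.24, adjusted p = 4.5e-05, edgeR). Usp18, the protease that removes ISG15 and dampens interferon receptor signalling, had 4.68, 5.97 and 5.75 CPM in B6 and 14.8, 17.4 and 15.5 in SjSS. Ifi27l2a, an interferon-inducible gene, had 19.1, 15.2 and 18.2 CPM in B6 and 46.9, 42.9 and 55.1 in SjSS. In each of these the samples of SjSS all lay above those of B6.

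Below the fold threshold, Irf7, the transcription factor that amplifies interferon production, had 50.1 ± 11.9 CPM in B6 and 112 ± 9.3 in SjSS (log2 fold change 1.16, adjusted p = 0.00025, edgeR). Ifit3 had 28.8, 27.8 and 27.0 CPM in B6 and 52.9, 83.7 and 58.9 in SjSS (1.22, adjusted p = 0.0015). The member lower in SjSS was Gbp7, on chromosome 3, at 28.0 ± 3.33 and 17.6 ± 1.39 CPM. Of 16 tested interferons, receptors and regulatory factors none was called, and the median was 0.02. By the adjusted p alone (edgeR) 5 were lower and none higher, beside 10.6% and 9.04% of all tested genes.

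The promoters of 38 of the 50 genes were in the RefSeq table used (GRCm38.p6, reference strain), which matched 10391 of the 15789 tested genes, and they were searched on both strands for GAAANNGAA, the core of the interferon-stimulated response element. It was found in 24 of the 38 genes (63.2%), in 8.92% of the tested genes that matched and in 8.56% of all 32851 promoter sequences of that table. The sequences below show 250 bases before to 50 after the start site for a member with several matches (Ifit3, chr19:34583279-34583578, plus strand, 3 matches) and for the called genes Oasl1 (chr5:114922990-114923289, plus strand) and Ifi202b (chr1:173982795-173983094, minus strand), in which these letters were not found in the window. Capitals mark the matches, here on the opposite strand.
Ifit3: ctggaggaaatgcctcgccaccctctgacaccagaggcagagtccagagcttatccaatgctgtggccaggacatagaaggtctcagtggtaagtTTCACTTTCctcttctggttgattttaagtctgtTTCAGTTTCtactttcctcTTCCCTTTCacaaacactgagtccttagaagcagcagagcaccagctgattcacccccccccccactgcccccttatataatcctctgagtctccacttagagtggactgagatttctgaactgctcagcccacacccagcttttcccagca
Oasl1: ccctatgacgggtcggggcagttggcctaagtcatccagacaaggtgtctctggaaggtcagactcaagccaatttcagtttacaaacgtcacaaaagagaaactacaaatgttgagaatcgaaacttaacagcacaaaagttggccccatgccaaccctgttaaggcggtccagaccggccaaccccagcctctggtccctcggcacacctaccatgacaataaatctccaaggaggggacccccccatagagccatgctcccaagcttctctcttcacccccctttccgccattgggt
Ifi202b: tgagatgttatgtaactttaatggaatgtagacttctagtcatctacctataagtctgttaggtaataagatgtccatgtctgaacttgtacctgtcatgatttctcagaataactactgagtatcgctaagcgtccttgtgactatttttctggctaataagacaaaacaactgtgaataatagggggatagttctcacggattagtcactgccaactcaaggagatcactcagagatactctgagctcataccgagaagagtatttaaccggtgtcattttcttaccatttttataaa
Of the called genes that matched, 11 of 130 higher in SjSS and 7 of 68 lower held the motif, shares of 8.46% and 10.3%.

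**Figure D4:**
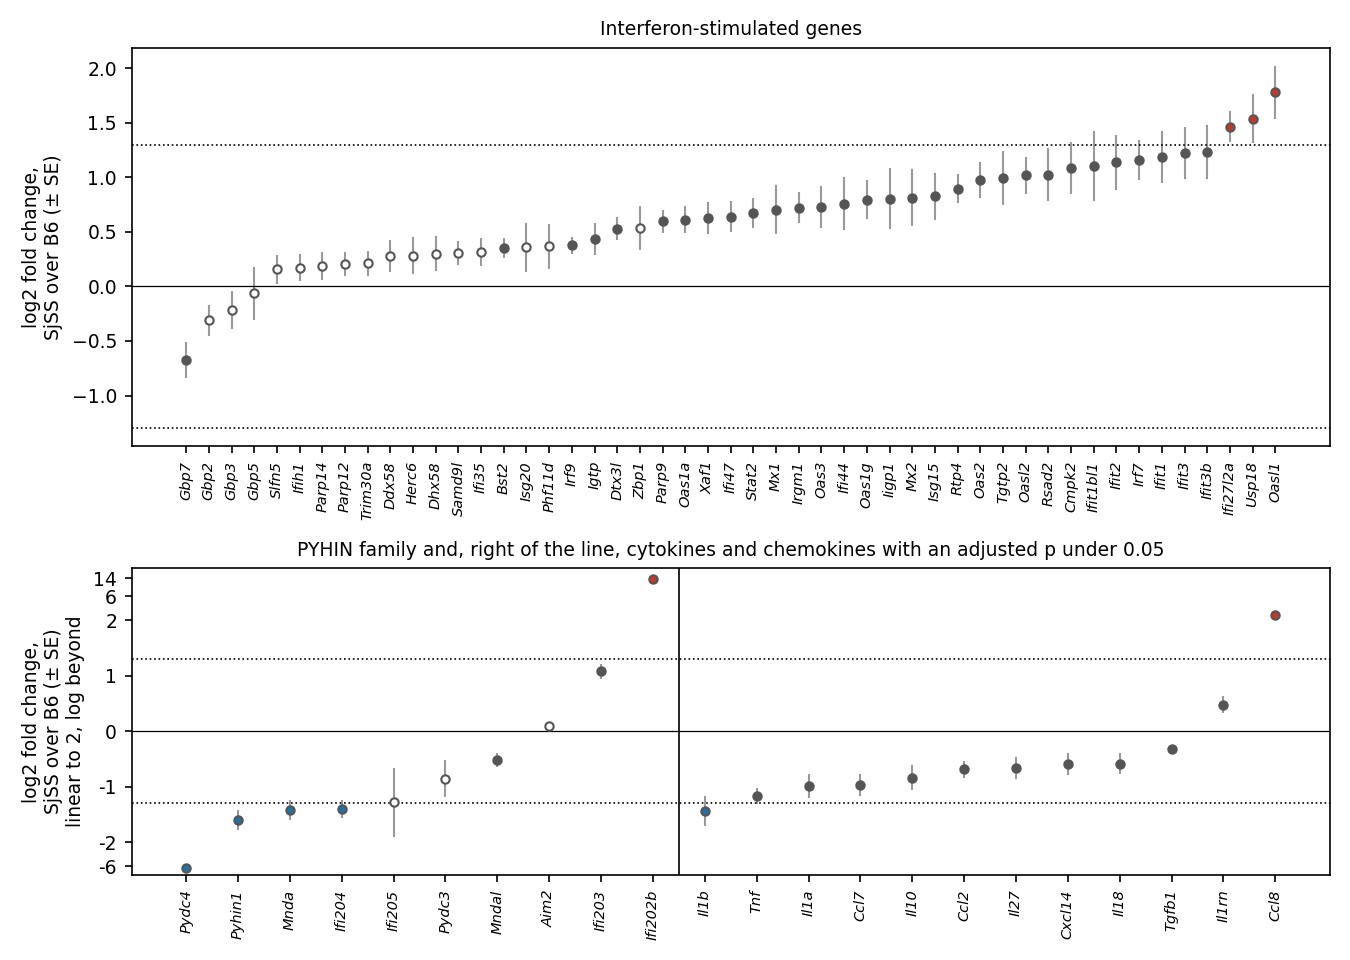
Log2 fold change of SjSS over B6 (± SE) in untreated BMDMs for 49 of the 50 interferon-stimulated genes (upper panel), the 10 PYHIN genes and the cytokine genes with an adjusted p under 0.05 (lower panel, linear to 2 and logarithmic beyond). Red and blue points were called, grey points passed the adjusted p only, open points did not, and all but 4 of the interferon-stimulated genes drawn lie above 0.

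Inflammatory cytokines and chemokines are the signals by which macrophages recruit and activate other cells. Of 39 tested, 1 was called higher and 1 lower, beside 1.3% and 0.716% of all tested genes. By the adjusted p alone 2 were higher and 10 lower, beside 9.04% and 10.6% of all tested genes, and the median was -0.03. Ccl8, a monocyte chemoattractant, rose from 0.461 ± 0.232 to 2.78 ± 0.566 CPM (log2 fold change 2.59 ± 0.35, adjusted p = 3.6e-05, edgeR). Il1b had 4.29, 4.36 and 7.14 CPM in B6 and 1.33, 2.31 and 2.28 in SjSS. Its log2 fold change of -1.44 ± 0.27 was -1.16 without B6 replicate 3 and -1.2 without SjSS replicate 1. Below the fold threshold, Tnf was at 46.5, 45.9 and 45.5 CPM in B6 and 21.8, 25.7 and 14.3 in SjSS, and Il1a, Ccl7 and Il10 were also lower by the adjusted p.

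Genes of sterol synthesis and LXR targets had a median of -0.29, with 11 of 23 lower and 2 higher by the adjusted p alone and none called, beside 10.6% lower and 9.04% higher of all tested genes. Idi1, of the mevalonate pathway, was at 22.3 ± 4.33 CPM in B6 and 11.1 ± 1.5 in SjSS. Of 15 alternative activation genes, Fn1 was called higher and Chil3 and Cd163 lower, beside 1.3% and 0.716% of all tested genes. By the adjusted p alone 2 of the 15 were higher and 5 lower, and their median was -0.24. No gene was called among 26 Toll-like receptor and adaptor genes (2 higher and 6 lower by the adjusted p alone), 28 genes of efferocytosis (6 and 7), 19 genes of MHC class II presentation and costimulation (1 and 2) and 25 proliferation genes (1 and 3), all by edgeR. These counts stand beside the same 9.04% higher and 10.6% lower of all tested genes. The medians of these 4 lists were -0.12, 0.00, 0.12 and -0.24.

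Of the TAM receptors Mertk, Axl and Tyro3, the nucleic acid receptors Tlr7 and Tlr9 and the Fc receptor Fcgr2b, none reached the fold threshold with an adjusted p under 0.05. Mertk, the TAM receptor kinase for apoptotic cells, had 207, 243 and 236 CPM in B6 and 273, 264 and 256.4 in SjSS (log2 fold change 0.21 ± 0.08, adjusted p = 0.06, edgeR). Axl was at 313, 237 and 234 CPM in B6 and 187, 183 and 193 in SjSS (-0.48 ± 0.11, adjusted p = 0.0061), and Tyro3 was below 1 CPM in every sample (1.21 ± 0.42, adjusted p = 0.052). Tlr7 had 191 ± 20.8 and 174 ± 23.8 CPM, and Tlr9 37.7 ± 0.995 and 36.5 ± 1.54, neither past the adjusted p. Fcgr2b, the inhibitory Fc receptor, had 198, 194 and 177 CPM in B6 and 87.0, 111 and 78.4 in SjSS (-1.05 ± 0.11, adjusted p = 3.2e-06), a difference below the fold threshold.

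Markers of the cell types that marrow cultures can hold were summed in each sample, and most of these sums did not overlap between strains. Single genes did not overlap in 5438 of the 15789 tested. The summed CPM of 15 macrophage markers was 22735 to 23597 in B6 and 19602 to 20320 in SjSS, without overlap, and 4 of the 15 were lower by the adjusted p alone. The 9 monocyte markers summed to 181 to 322 CPM in B6 and 115 to 153 in SjSS. F13a1, the called gene of these, was at 129 ± 50.4 and 28.9 ± 6.58 CPM and made up a large part of the B6 sums. The lower sum did not hold for the 9 as a set, of which 5 had a log2 fold change above 0. Their median was 0.14, and 2 were higher and 1 lower by the adjusted p alone (edgeR). The 10 stromal markers summed to 73.6 to 216 CPM in B6 and 229 to 318 in SjSS, and Col1a1 and Col1a2 were higher by the adjusted p alone, with Lum at 0 in all 6 samples. The 8 osteoclast markers in the table summed to 189 to 218 CPM in B6 and 291 to 363 in SjSS, with Calcr at 0. Of the 6 tested, 4 had a log2 fold change above 0, and 3 were higher and 1 lower by the adjusted p alone (edgeR). The 5 endothelial markers in the table summed to 15 to 18.2 CPM in B6 and 22.2 to 23.5 in SjSS, and the 9 dendritic cell markers to 184 to 218 and 220 to 264. Higher by the adjusted p alone (edgeR) were 1 of 4 tested endothelial and 1 of 7 tested dendritic cell markers, and none was lower. Neutrophil markers summed to 196 to 201 and 173 to 183, and mast cell and basophil markers to 0.730 to 1.08 and 1.18 to 1.69. Of 6 tested neutrophil markers 2 were lower and none higher by the adjusted p alone (edgeR). None of 4 tested mast cell and basophil markers passed it. The sums of B cell, T cell and erythroid markers overlapped between strains. The part of these markers in the results was not tested.

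S100a9, of neutrophils, was called at traces. It had 74 counts over the B6 samples and 2 over the SjSS samples, a ratio of 31.8 (8.5 to 267) in favour of B6, and was not called without SjSS replicate 2 (adjusted p = 0.051, edgeR) or SjSS replicate 3 (0.057).

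The strain differences seen in untreated BMDMs were then read in the AC and CpG treated samples, which are other libraries of both strains. With 3 mice in each strain, they would come from the same mice as the untreated samples, so they are not other animals. In those, 8.93% (AC) and 2.61% (CpG) of all tested genes were called between strains in either direction. Of the 318 genes, 161 (50.6%) were called in the same direction under AC and 151 (47.5%) under CpG, and 22 and 1 were called in the opposite direction. Called or not, the log2 fold change kept its sign in 259 genes under AC and in 289 under CpG. Its median, signed by the untreated direction, was 1.38 under AC and 1.53 under CpG, against 1.89 without treatment. The 86 genes of chromosome 1 were called in the same direction in both treatments in 47 cases (54.7%), the 38 of chromosome 3 in 18 (47.4%) and the 194 others in 38 (19.6%). Ifi202b, Npl, Chil1, Cd55, Dusp23, Tpm3, Ptgfrn, Snx5, Guca1a, A530064D06Rik and Hist1h2al were called in the same direction in each of the 3 conditions. Npl, for example, had log2 fold changes of 3.44 under AC and 2.84 under CpG, Tpm3 -1.83 and -1.93, and Snx5 -3.30 and -2.42.

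**Figure D5:**
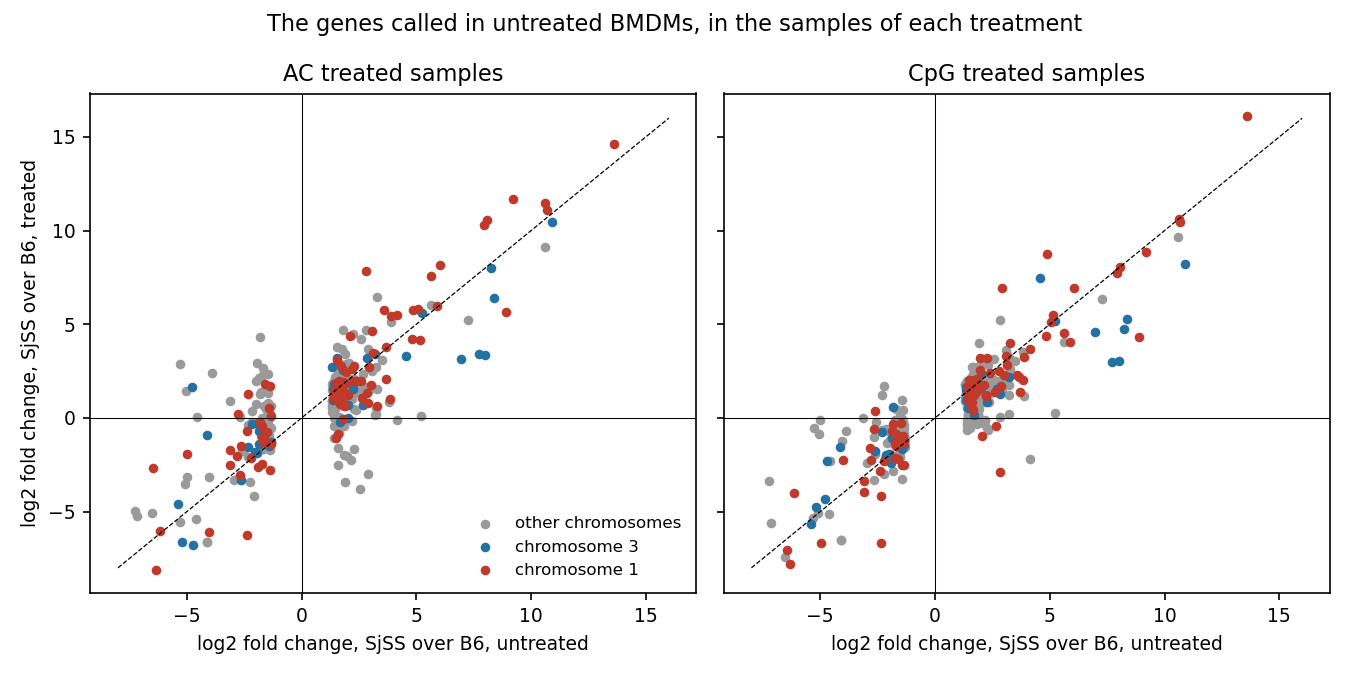
Log2 fold change of SjSS over B6 in AC treated (left) and CpG treated (right) samples against that in untreated samples, for the 318 genes called in untreated BMDMs, coloured by chromosome, with the line of equal values dashed. Genes below 0 on the right of each panel, or above 0 on the left, changed direction with treatment, and 22 of the 318 were called in the opposite direction under AC and 1 under CpG.

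The change of direction under AC was mostly in genes outside chromosomes 1 and 3, with 20 of 194 called in the opposite direction against 2 of 86 on chromosome 1 and none of 38 on chromosome 3. The 2 genes of chromosome 1 were the PYHIN genes Pyhin1 and Ifi204, lower in SjSS without treatment and higher with ACs (log2 fold changes 1.80 and 1.71). In the test of the interaction itself, 81 of the 318 genes differed in their strain effect between AC and control samples (7.53% of all tested genes did) and 26 between CpG and control samples (0.614%). The interferon-stimulated genes had medians of 2.82 under AC and -0.22 under CpG beside 0.63 without treatment, whereas the PYHIN genes had 1.78, -1.63 and -1.06. The interaction tests share the untreated samples, and the calls they are read over were chosen on those samples.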

How the data were processed

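RNA-seq gene counts of 6 untreated BMDM samples (3 B6, 3 SjSS), assigned by their labels, were compared, within a table of 18 samples. The authors aligned paired reads to mm10 with STAR in Partek Flow and quantified them there by E/M. The deposited values are estimated counts per gene, not normalized, and were rounded to whole numbers here. Of the values, 41.1% were not whole (tolerance 1e-06). Totals per control sample ranged from 30688288 to 57139640. The annotation version and the strand setting of the counting are not given in the sources used here. Symbols turned into dates (23) were resolved by position in GENCODE M21 for 20.

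Genes were kept by filterByExpr, scaled by TMM and fitted with 6 group means (edgeR 4.0.16, quasi-likelihood test, R 4.3.3, with limma 3.58.1). All 18 samples shared the estimate of the spread. Calls need an adjusted p under 0.05 (Benjamini-Hochberg over 15789 genes) and a log2 fold change beyond 1.3 or -1.3, the threshold of the study's methods, and the SE is the size of the log2 fold change divided by the square root of F. CPM are counts relative to TMM scaled totals. Intervals (95%) and floors (3 counts over the group) cover counting error only. A gene's shared percent is the part of the read-length stretches of its GENCODE M21 transcripts that also occurs in another gene. Tables and figures used Python 3.11.15 and matplotlib 3.10.9. The pipeline was tested on simulated data.

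Named genes were, for each class (chromosome 1, chromosome 3, other), the 6 largest called increases and 6 largest decreases with samples that do not overlap and at least 1 CPM in the higher strain, the 2 largest of each among predicted genes, every called member of the gene lists, and Mertk, Axl, Tyro3, Tlr7, Tlr9, Slc11a1, Il2, Il21, Ctla4 and Fcgr2b. Others are said to be picked after their values were seen. A called list member, and a point of a plot, are not reported here. Members and lists were chosen with earlier results of these data known. The only sex-linked check gene in the table was not called. The alternatives were DESeq2 1.42.0, its size factors in edgeR, no filter, a filter of 10 counts in 3 samples, the 6 control samples only, the replicate number as a block, no fold threshold and each control sample left out. Leaving out similar genes, or genes under 1 CPM, was added after seeing the data. The 3 mice of each strain would have given its samples of all 3 treatments, but which sample came from which mouse is not stated, and the fit treats the 18 samples as independent.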

Additional observations from a re-analysis of the deposited data

Results flagged for a closer look

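Of 68 named genes tested, 26 had a strain difference that itself differed between treated and untreated samples (interaction term in edgeR, adjusted p under 0.05 and a size over 1.3 on the log2 scale), 24 with ACs and 5 with CpG. A positive value means that SjSS lay higher against B6 with the treatment than without it. AC treated samples had been given thymocytes, and their part in these values was not tested.

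With ACs the PYHIN genes of chromosome 1 had positive values, at 3.78 for Pydc4, 3.40 for Pyhin1, 3.11 for Ifi204 and 1.93 for Mnda, and so did the predicted gene Gm4955 at 3.07. Other genes of chromosome 1 were Fcgr2b at 2.48, Igsf9 at 1.67 and Slamf8 at 1.45. On chromosome 3 the values were 6.42 for S100a9, 1.81 for Chil3, 1.68 for Gnb4 and -1.32 for P2ry1. Among genes elsewhere, Hcar2 had 3.93, Pou3f1 3.17, Il1b 2.76, Nrg1 2.71, F13a1 2.51, Usp18 2.24, Oasl1 1.92, Axl 1.70, Ccl8 1.63, A530064D06Rik 1.56 and Tlr9 1.55, and Nptx1 had -3.01. Fcgr2b, Axl and Tlr9 had not been called without treatment, and the value of S100a9 rests on 74 and 2 counts in the untreated groups. With ACs, S100a9 was near the floor too, at 0.0794, 0 and 0 CPM in B6 and 0, 0.252 and 0 in SjSS. The strains did not differ in it there (adjusted p = 0.37, edgeR), so its value is uncertain.

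With CpG the value was 2.45 for Fcrl5, whereas Gm14036 had -2.99, Usp18 -2.07, Il1b -1.79 and Oasl1 -1.77. Usp18, Il1b and Oasl1 thus had values of opposite sign with the 2 treatments, both taken against the same untreated samples.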

How the results depend on the processing

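Within 1.5 times of the reported counts were those from DESeq2, its size factors, both filters, the 6 control samples alone, the replicate block, the samples left out in turn and the removal of similar genes. Leaving out 1 control sample gave 143 to 232 genes higher and 89 to 112 lower in SjSS, 69 to 82 on chromosome 1, 32 to 37 on chromosome 3 and 134 to 218 elsewhere, and 134 to 172 and 126 to 160 called in the same direction under AC and CpG. Of the 318 genes, 154 were called with every one of these samples left out. With no fold threshold, 1428 genes were higher and 1668 lower, 298 on chromosome 1, 202 on chromosome 3 and 2596 elsewhere, of which 1193 and 1172 were called in the same direction under AC and CpG. With at least 1 CPM in the higher strain, 100 were higher and 59 lower. Of these, 51 were on chromosome 1, 19 on chromosome 3 and 89 elsewhere. They were 1.27% of the 12475 tested genes at that level, against 2.01% of all 15789 tested genes. With similar genes left out, 69, 34 and 168 were called. The same replicate numbers did not pair the control samples (correlations of deviations -0.072, -0.046 and 0.016, and no sample correlated best with its own number), and the replicate block gave 208 higher and 115 lower, with 85, 38 and 200 by chromosome class. Of 61 named genes that were called, 51 were called under all 12 settings. Slc11a1 turned from 0.01 to -0.00301 with no filter, and its values with a sample left out ranged from -0.0185 to 0.0322, all near 0. Genes below 1 CPM have few reads, which limits the size of a difference that could be detected.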
